A study of Mus musculus with 24 samples.

Results

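The neurotrophic factors and receptors described here are 8 genes: the ligands Bdnf, Gdnf, Ntf3 and Artn, and the receptors Ntrk2, Ntrk3, Ret and Gfra1. They were taken by symbol from a table of 24421 genes, all 8 were found in it, and 6 of the 8 passed the count filter and are called tested members below. Ntf3 and Artn did not pass it. The study sequenced RNA of sciatic nerve from 24 mouse samples, 6 in each of 4 groups, to ask how the nerve responds to 2 kinase inhibitors alone and together. Every sample, vehicle included, carried the genotype Nf1 flox/flox PostnCre+, in which Cre is named for the Postn promoter and Nf1, a brake on RAS and so on ERK signalling, can be deleted. Plexiform neurofibroma, a nerve sheath tumour that is benign, is the labelled stage of all 24. The groups received vehicle, LY3214996 (an inhibitor of ERK1/2, here ERKi), abemaciclib (an inhibitor of CDK4/6, here CDKi) or both drugs (here the combination), each for 1 week. A nerve without the Nf1 flox/flox PostnCre+ genotype was not analysed here, and the labels used here give no age, dose or litter. They also do not say that the samples came from separate animals, so p-values measure the spread between these samples.

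Neurotrophins such as BDNF and NT-3 are secreted proteins that keep sensory and motor neurons alive and bind the TRK receptor kinases, BDNF mainly TrkB (gene Ntrk2) and NT-3 mainly TrkC (gene Ntrk3). GDNF and artemin (gene Artn) belong to another family, which binds a GFRα co-receptor on the cell surface and then signals through the receptor kinase RET. Glia and fibroblasts of a nerve are classically described as sources of such ligands and the neurons as the cells that carry the signalling receptors, although Ntrk2 and Ntrk3 also give truncated receptors without a kinase domain that non-neuronal cells make. The comparison with neuron content asks which members follow neuronal RNA in these libraries.

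Levels are in CPM (counts scaled to a common library size, with TMM factors). Library totals ran from 5391543 to 42321550 counts, so that a count of 3, taken as the limit of detection, was worth between 0.0697 and 0.536 CPM. The tissue label was checked on marker genes: 12 genes of myelinating Schwann cells summed to between 5655 and 36320 CPM, lowest in ERKi 3. The 18 sensory neuron markers summed to between 73.2 and 10260 CPM. Scn10a, a voltage-gated sodium channel gene of pain-sensing neurons whose cell bodies lie in the ganglion, was used to measure neuron content. It ranged from 0.355 to 375.2 CPM in vehicle (median 132.5), from 168.6 to 633.8 in ERKi (median 222.3), from 0.215 to 286.3 in CDKi (median 159.2) and from 0.316 to 565.4 in the combination (median 211.0). The largest gap in the sorted log2 CPM, 2.88, lay below vehicle 5, at 9.76 CPM. It left 4 neuron-poor libraries (vehicle 1, CDKi 3, CDKi 5 and combination 5) and 20 neuron-rich ones, including all 6 of ERKi. The next gap, 2.41, lay just above vehicle 5. Liver RNA (Alb above 100 CPM) was present in 3 libraries, ERKi 3, CDKi 1 and CDKi 3, and CDKi 5 had the highest sum of skeletal muscle markers, 1178 CPM. In bulk RNA, fewer neuron cell bodies in a sample and less RNA per neuron cannot be told apart.

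Among the ligands, Bdnf followed the neurons. Bdnf lies on chromosome 2 (GRCm38, 109674700 to 109727007, plus strand, 11 annotated transcripts). In vehicle it ranged from 0.177 to 18.4 CPM (median 11.1), in ERKi from 9.13 to 33.9 (median 14.1), in CDKi from 0.0537 to 15.9 (median 8.91) and in the combination from 0 to 27.3 (median 8.31). The low values belonged to the libraries low in Scn10a. In the 4 neuron-poor libraries Bdnf was at 0.533 CPM in vehicle 1 (6 counts), 0.0682 in CDKi 3 (1 count), 0.0537 in CDKi 5 (1 count) and 0 in combination 5. In vehicle 5, the lowest of the neuron-rich libraries, it was at 0.177 CPM (3 counts). The other 19 neuron-rich libraries held between 2.98 CPM (combination 3) and 33.9 CPM (ERKi 3), where Scn10a was also highest.

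Gdnf, the founding ligand of the RET pathway, was scarce and showed the opposite order. It lies on chromosome 15 (7810846 to 7837575, plus strand, 1 transcript). It ranged from 1.30 to 4.71 CPM in vehicle (median 2.78), from 1.13 to 3.35 in ERKi (median 1.91), from 1.88 to 3.72 in CDKi (median 2.57) and from 1.29 to 5.68 in the combination (median 2.59). The highest values were in the neuron-poor combination 5 (5.68 CPM) and vehicle 1 (4.71 CPM), and the lowest in ERKi 3 (1.13 CPM), the library highest in Scn10a. CDKi 5, also neuron-poor, stood at 1.88 CPM, so the order had exceptions. These values rest on 8 to 90 counts per library.

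The remaining ligands were at the limit of detection. Ntf3, which encodes NT-3 (chromosome 6, 126101412 to 126166910, minus strand), had 44 counts in all 24 libraries together, from 0 to 4 per library. It was at 0 in 6 libraries and above 3 counts in 3. Artn (chromosome 4, 117926162 to 117929763, minus strand) had 55 counts in all, from 0 to 9 per library, with 4 libraries at 0 and 7 above 3 counts. The highest CPM were 0.350 for Ntf3 and 0.588 for Artn. Both stayed under the count filter. In a fit without the filter neither passed in any comparison, with wide errors: in the combination against vehicle Ntf3 had a log2 fold change of 0.64 ± 0.92 (edgeR adjusted p = 0.872) and Artn -0.89 ± 0.89 (adjusted p = 0.777).

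The promoters of the 2 ligands with enough counts are shown because Bdnf and Gdnf, with opposite orders across these libraries, each have a start site with the core of the cAMP response element, through which CREB acts on activity-dependent genes. The element shown is TGACGT, searched on both strands in the 250 bases before each RefSeq start site (GRCm38.p6). Elements of AP-1 (TGANTCA), ETS factors (CCGGAAG) and the GC box (GGGCGG) were searched in the same way. Their matches are not shown. RefSeq entries were matched for 6 of the 8 members, with 14 start sites, and 2 of these 14 held TGACGT. Across 32817 promoters of the same length 6.46% held it. The first sequence lies before the third of 7 Bdnf start sites (chr2:109692186-109692435, plus strand) and the second before the first of 2 Gdnf start sites (chr15:7809798-7810047, plus strand). Capitals mark the element, read as ACGTCA on the printed strand, 36 and 51 bases before the start.
Bdnf: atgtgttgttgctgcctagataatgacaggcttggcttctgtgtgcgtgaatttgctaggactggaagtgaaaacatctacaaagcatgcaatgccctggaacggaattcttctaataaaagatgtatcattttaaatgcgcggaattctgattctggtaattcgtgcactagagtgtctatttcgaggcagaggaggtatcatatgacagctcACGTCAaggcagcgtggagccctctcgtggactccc
Gdnf: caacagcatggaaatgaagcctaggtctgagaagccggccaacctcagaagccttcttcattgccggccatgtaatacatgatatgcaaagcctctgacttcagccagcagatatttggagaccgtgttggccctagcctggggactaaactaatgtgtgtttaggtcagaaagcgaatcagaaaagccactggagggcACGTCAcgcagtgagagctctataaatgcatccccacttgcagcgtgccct
The counts are per gene and do not say which start site was used. A match describes the letters, and the element shown was chosen from those searched with the values known.

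Among the receptors, Ret followed Scn10a but did not vanish where Scn10a was almost absent. Ret, the kinase shared by the GDNF family (chromosome 6, 118151745 to 118197718, minus strand), ranged from 14.5 to 195.3 CPM in vehicle (median 79.7), from 98.6 to 422.2 in ERKi (median 121.9), from 17.04 to 136.8 in CDKi (median 90.0) and from 2.65 to 256.9 in the combination (median 99.3). All 4 neuron-poor libraries lay below all 20 neuron-rich ones. How many of all genes separated these libraries in the same way was not counted. Of these 4, vehicle 1, CDKi 3 and CDKi 5 held 14.5, 17.04 and 18.5 CPM of Ret, and combination 5 held 2.65 CPM, from 42 counts. Their Scn10a was at most 1.23 CPM. The 18 sensory neuron markers still summed to between 73.2 and 106.3 CPM in these 4 libraries, so an absence of neuronal RNA was not shown. In the 18 libraries with Scn10a above 60 CPM there were between 45.3 and 75.5 CPM of Ret for every 100 CPM of Scn10a, while in the 20 neuron-rich libraries this ratio reached 382, in vehicle 5.

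The ranges of the other receptors overlapped between neuron-poor and neuron-rich libraries. Ntrk2, the BDNF receptor gene (chromosome 13, 58806569 to 59133970, plus strand), ranged from 235.4 to 410.3 CPM in vehicle (median 316.4), from 213.7 to 347.7 in ERKi (median 282.0), from 230.4 to 396.3 in CDKi (median 276.8) and from 237.5 to 296.3 in the combination (median 269.1). Its median was 294.0 CPM in the neuron-poor libraries and 275.5 in the neuron-rich ones. The groups overlapped, and the lowest library was ERKi 3. Of 10 annotated Ntrk2 transcripts 7 are coding, and counts per gene cannot separate the kinase form from the truncated forms.

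Ntrk3, the NT-3 receptor gene (chromosome 7, 78175959 to 78738012, minus strand), ranged from 60.6 to 146.0 CPM in vehicle (median 128.7), from 114.9 to 224.6 in ERKi (median 132.2), from 89.3 to 181.8 in CDKi (median 127.1) and from 85.6 to 196.0 in the combination (median 101.1). The lowest value, in vehicle 3, came from the shallowest library, with 339 counts of Ntrk3. The median was 143.6 CPM in the neuron-poor libraries and 125.7 in the neuron-rich ones.

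Gfra1, the GDNF co-receptor gene (chromosome 19, 58235604 to 58455909, minus strand), ranged from 193.7 to 257.7 CPM in vehicle (median 219.9), from 131.4 to 234.8 in ERKi (median 200.1), from 156.2 to 271.4 in CDKi (median 214.4) and from 119.1 to 238.3 in the combination (median 191.2). Its lowest values were in combination 3, ERKi 3 and combination 2, and its highest in the neuron-poor CDKi 5. Its median was 216.7 CPM in the neuron-poor libraries and 205.7 in the neuron-rich ones. Bdnf, Ntrk2, Ntrk3 and Gfra1 overlap annotated antisense genes that are not rows of the table. The strand setting of the counting is not given in the sources used here, so reads of those partners cannot be told apart from reads of the members.

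**Figure D1:**
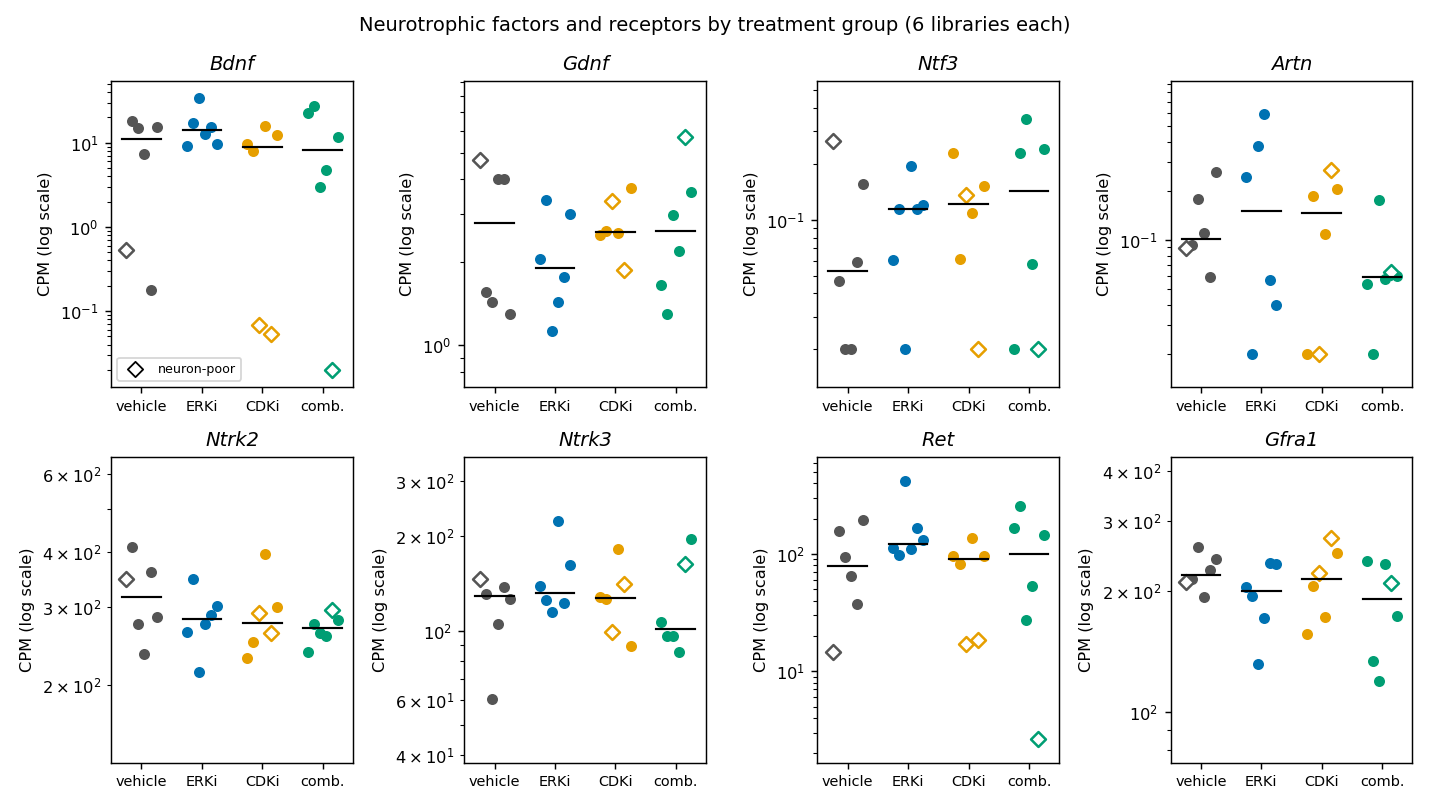
CPM of the 8 members on log axes, with a point for each of the 6 libraries of a group and a bar at the group median; open diamonds are the 4 neuron-poor libraries, and libraries at 0 are drawn at a fixed level near the bottom of the panel. The diamonds lie below all filled points for Ret and among the lowest for Bdnf, and within the range of the filled points or above it for Gdnf, Ntrk2, Ntrk3 and Gfra1.

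Levels of different genes were compared per kb of annotated exon, as the median over the 24 libraries. Gfra1 was the most abundant member at 38.4 CPM per kb, followed by Ret at 14.5, Ntrk2 at 14.4, Ntrk3 at 4.18, Bdnf at 1.74, Gdnf at 0.687, Ntf3 at 0.0647 and Artn at 0.0378. The range of Gfra1 (21.7 to 49.6) lay wholly above that of Ntrk2 (11.1 to 21.3), which lay above that of Ntrk3 (2.01 to 7.45). Ret ranged from 0.392 to 62.4 CPM per kb and overlapped all 3. Ntrk3 overlapped Bdnf, and Bdnf overlapped Gdnf. The range of Gdnf (0.307 to 1.55) lay above those of Ntf3 and Artn, which overlapped each other. The exon lengths of Ntrk2 (19.3 kb) and Ntrk3 (30.2 kb) join the exons of all their transcripts, so a shorter form in use would have a higher level per kb. Of the related genes, the neurotrophin co-receptor Ngfr (p75) stood at 27.3 CPM per kb, the neurturin co-receptor Gfra2 at 19.6, the artemin co-receptor Gfra3 at 5.95, and the ligands Lif and Cntf at 1.87 and 1.6.

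**Figure D2:**
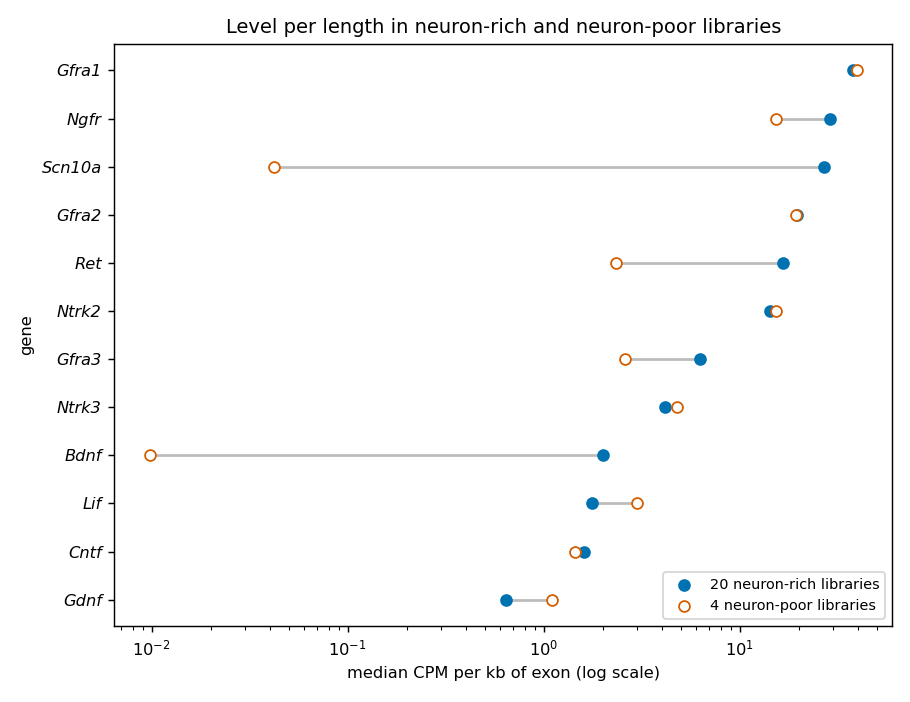
Median CPM per kb of exon on a log axis for the 6 tested members, Scn10a and related genes, with filled points for the 20 neuron-rich and open points for the 4 neuron-poor libraries. The points lie far apart for Scn10a, Bdnf and Ret, and close together for Gfra1 (37.6 and 39.6), Gfra2, Ntrk2 (14.3 and 15.2) and Ntrk3 (4.17 and 4.76).

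The relation to neurons was tested in edgeR by adding log2 CPM of Scn10a to the group means. Its coefficient, here called the neuron slope, is the log2 change of a gene per doubling of Scn10a at equal treatment: 1 is a proportional change and 0 is none. Among the 6 tested members 2 were higher with more Scn10a at an adjusted p under 0.05 (edgeR, Benjamini-Hochberg) and 0 were lower. Across all 15384 genes tested 24.7% passed: 17.4% of all genes tested were higher and 7.24% were lower. Bdnf had a slope of 0.84 ± 0.063 (SE, edgeR adjusted p = 3.66e-10). Ret had a slope of 0.40 ± 0.044 (edgeR adjusted p = 1.44e-07). For comparison, all 17 tested sensory neuron markers passed, with slopes between 0.351 and 0.988.

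The slope of Ret depended on which libraries were used. It was 0.60 ± 0.075 in the 20 neuron-rich libraries (edgeR adjusted p = 5.2e-06). In the 18 libraries with Scn10a above 60 CPM, a limit chosen after seeing the data, the slope of Ret was 0.93 ± 0.067 (edgeR adjusted p = 7.67e-08), near a proportional change. Bdnf had slopes of 0.98 ± 0.11 and 0.78 ± 0.14 in the same sets of libraries. So Ret rose nearly in proportion to Scn10a where Scn10a was abundant, while 3 of the 4 libraries with almost no Scn10a still held between 14.5 and 18.5 CPM of Ret.

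Gdnf had a slope of -0.098 ± 0.037, which just missed the threshold (edgeR adjusted p = 0.0545). It passed in 12 of 39 alternative settings, among them DESeq2 (adjusted p = 0.0419) and the neuron-rich libraries alone (slope -0.29 ± 0.097, edgeR adjusted p = 0.0404). Leaving out CDKi 5 alone gave -0.14 (adjusted p = 0.0103). The slope of Gdnf was below 0 in all 39. Several lists of sheath cell markers also sat slightly below 0, with median slopes of -0.057 for 12 myelinating Schwann cell genes, -0.035 for 10 nerve fibroblast genes, -0.029 for 7 perineurial genes and -0.056 for 8 endothelial genes, of which only 1 perineurial gene passed. The 11 markers of non-myelinating and repair Schwann cells did not: their median was 0.00258, with slopes from -0.139 to 0.424, 2 called higher and 1 lower. The 2 called higher were Ngfr, which neurons also express, and Gap43, which is also on the list of sensory neuron markers. The 8 satellite glia markers had a median of 0.044, with 3 called higher. Medians were -0.097 for 8 adipocyte genes, -0.033 for 8 macrophage genes and -0.046 for 4 liver genes, with none called. For 8 genes of pericytes and smooth muscle the median was -0.076, with 1 called lower. The 10 skeletal muscle markers had a median slope of -0.436, with 1 called higher and 3 lower. Their sum did not share this direction: its median was 5.90 CPM in the neuron-poor libraries and 34.2 in the neuron-rich ones. The neuron-poor CDKi 5 held 1178 CPM. The part of these cells in the Gdnf result was not tested.

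The remaining receptors had slopes close to 0 with small errors over all 24 libraries. Ntrk2 had -0.0079 ± 0.016 (edgeR adjusted p = 0.731), Ntrk3 -0.021 ± 0.025 (adjusted p = 0.542) and Gfra1 -0.024 ± 0.019 (adjusted p = 0.363). None of these 3 passed in any of 39 alternative settings. Over these settings the slope ran from -0.033 to 0.024 for Ntrk2 and from -0.035 to 0.177 for Ntrk3. A neuronal share of their RNA was not tested. Gfra1 came closest in the 18 libraries above 60 CPM of Scn10a, at -0.23 ± 0.092 (adjusted p = 0.0788). The members therefore did not divide into ligands and receptors by slope. A ligand, Bdnf, and a receptor, Ret, had the positive slopes, while Gdnf, Ntrk2, Ntrk3 and Gfra1 had none that passed.

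**Figure D3:**
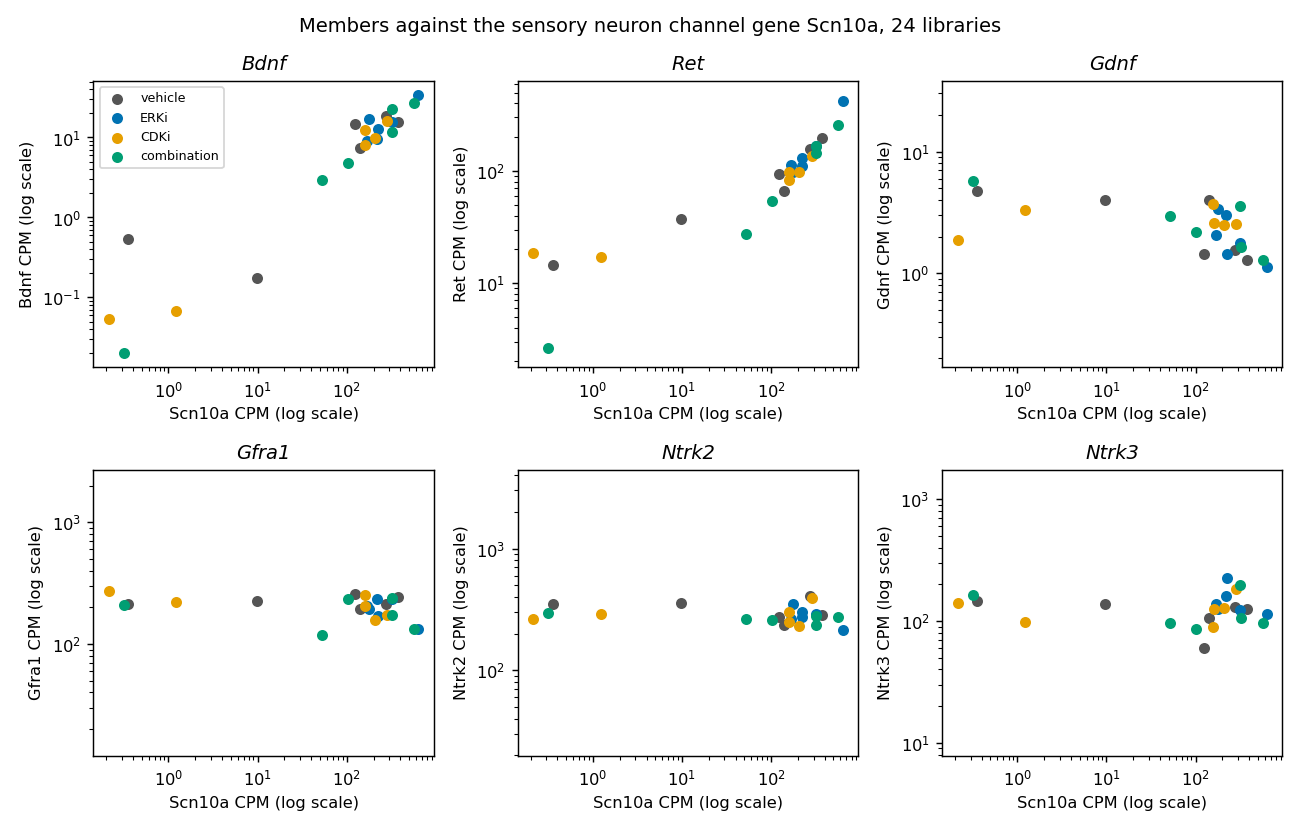
CPM of the 6 tested members against CPM of Scn10a, both on log axes, with a point per library coloured by group; the Bdnf value of 0 in combination 5 is drawn at a fixed low level. Bdnf and Ret climb with Scn10a above about 60 CPM, Ret flattens at low Scn10a, Gdnf has its lowest value at the highest Scn10a, and Gfra1, Ntrk2 and Ntrk3 show no slope that passed the test.

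The relation to Scn10a was also computed as a correlation of log2 CPM within the 20 neuron-rich libraries, so that the split between rich and poor did not make it. Unlike the slope, the correlation pooled the 4 groups and was not taken at equal treatment. For 6 members it used 100000 permutations across the groups and Benjamini-Hochberg adjustment over the 6. Ret and Scn10a had a Pearson r of 0.881 (permutation p = 1e-05, adjusted p = 3e-05) and a Spearman rho of 0.967 (permutation p = 1e-05, adjusted p = 6e-05). The value 1e-05 is the smallest these permutations can give. Bdnf had r = 0.951 (permutation p = 1e-05, adjusted p = 3e-05) and rho = 0.815 (permutation p = 3e-05, adjusted p = 9e-05). Gdnf had r = -0.581 (permutation p = 0.00296, adjusted p = 0.00592) and rho = -0.597 (permutation p = 0.00608, adjusted p = 0.0122). Without vehicle 5 and combination 3, the libraries farthest from the median log2 CPM of Scn10a, r was 0.956 for Ret, 0.816 for Bdnf and -0.526 for Gdnf. For Ntrk2 (r = -0.223, permutation p = 0.341), Ntrk3 (r = 0.143, permutation p = 0.531) and Gfra1 (r = -0.183, permutation p = 0.448) no relation passed, although r for Gfra1 was -0.565 without the same libraries.

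The members fell into distinct patterns across the 24 libraries. The values are Spearman correlations of log2 CPM over 24 libraries, which differ in depth and neuron content. Bdnf and Ret ran together (0.899) and Gdnf ran against both (-0.661 and -0.678). The genes most like Bdnf were Serinc2 (0.961), the irritant channel gene Trpa1 (0.957) and the serotonin receptor gene Htr1f (0.953). Those most like Ret were the potassium channel gene Kcnd1 (0.99), Osbpl3 (0.983) and Etnk1 (0.98), all slightly above Scn10a itself (0.976). Gdnf was most like Pxdc1 (0.847), the nuclear lamin gene Lmna (0.817) and the BMP antagonist gene Sostdc1 (0.817).

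The receptors whose slope on Scn10a did not pass were most like other genes. Ntrk2 was most like the matrix gene Postn (0.877), Angptl2 (0.865) and the protease inhibitor gene Serpine2 (0.861). Gfra1 was most like the microfibril gene Mfap5 (0.921), which is among the nerve fibroblast markers used here, Crispld2 (0.88) and Ddah1 (0.88). Ntrk3 had no close match: its highest values were 0.678 for Ube2j2, 0.667 for the adhesion molecule gene Ncam1 and 0.657 for Lrfn4. Ntrk2, Ntrk3 and Gfra1 were only weakly related to each other, between -0.184 and 0.351.

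Of 47 further genes of these pathways, 45 were in the table and 38 were tested. With more Scn10a 14 of these 38 were higher and 2 lower (edgeR adjusted p under 0.05), beside 17.4% and 7.24% of all genes. In the neurotrophin family 4 of 8 were higher. Among them Ngfr, a gene of both neurons and Schwann cells, had a slope of 0.13 ± 0.024 (adjusted p = 1.52e-04). The sortilin-family gene Sorcs2 was lower (-0.065 ± 0.024, adjusted p = 0.0471), a call lost in 22 of 39 alternative settings, and its relative Sorcs1 had -0.050 ± 0.026 (adjusted p = 0.158).

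In the GDNF family 2 of 5 tested genes were higher, Gfra3 (0.18 ± 0.038, adjusted p = 0.00107) and Gfra4, while Gfra2 had a slope of 0.0051 ± 0.023 (adjusted p = 0.888). Nrtn, which encodes neurturin, had 1 to 18 counts per library and stayed under the count filter; without the filter its slope was 0.018 ± 0.063 (adjusted p = 0.908). Of these co-receptor genes Gfra3 and Gfra4 passed and Gfra1 and Gfra2 did not, but the difference between their slopes was not tested. In the CNTF and LIF family 2 of 9 were higher, the CNTF receptor gene Cntfr (0.20 ± 0.034, adjusted p = 1.06e-04) and Lifr. Cntf (0.0037 ± 0.051, adjusted p = 0.966) and Lif (-0.042 ± 0.037, adjusted p = 0.408) did not pass over all libraries. In the 18 libraries with Scn10a above 60 CPM both were lower with more Scn10a, Cntf at -0.91 ± 0.22 (edgeR adjusted p = 0.00757) and Lif at -0.59 ± 0.19 (adjusted p = 0.033). Among 16 processing and adaptor genes 6 were higher, led by the prohormone convertases Pcsk1 (0.71 ± 0.054) and Pcsk2 (0.50 ± 0.034), and 1 was lower, Pcsk5 (-0.054 ± 0.019, adjusted p = 0.0468), a call lost in 19 of 39 alternative settings.

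**Figure D4:**
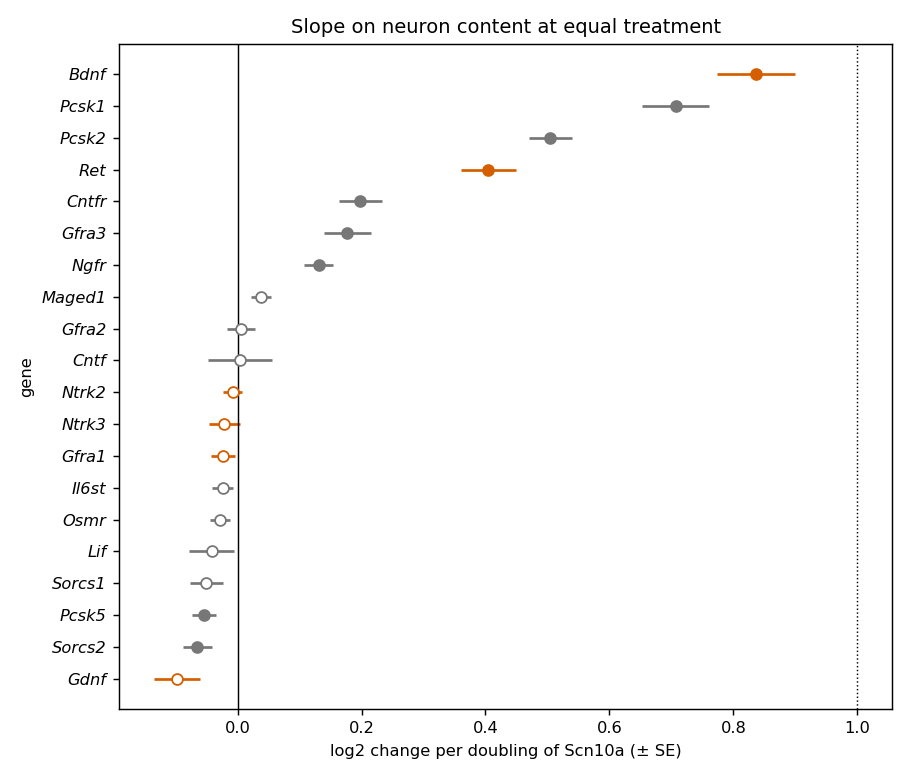
Neuron slopes with standard errors from the edgeR fit over 24 libraries, orange for the members and grey for related genes; filled points passed at an adjusted p under 0.05, and the dotted line at 1 is a proportional change. Bdnf lies nearest the dotted line, Ret at 0.40, and Gdnf, Gfra1, Ntrk2 and Ntrk3 at or below 0.

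Treatment changed none of the members detectably. In each of 7 comparisons 0 of 6 tested members passed an adjusted p under 0.05 in edgeR, 0 had an unadjusted p under 0.05, and 0 passed in DESeq2 or limma-voom. The share of all 15385 genes that passed was 0.0% for ERKi against vehicle, 0.0% for CDKi against vehicle, 0.123% for the combination against vehicle (0.013% higher and 0.11% lower), 0.0% for the combination against ERKi, 0.0065% for the combination against CDKi, 0.0% for ERKi against CDKi and 0.0% for the interaction of both drugs. These comparisons called few genes of any kind, so the count of members says little about the members. The comparisons with vehicle share the vehicle samples. For no member did the groups of a comparison separate without overlap. The share of all genes that did was not counted, so this too says little about the members.

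The sizes and errors show what could have been seen. In ERKi against vehicle Bdnf had a log2 fold change of 0.78 ± 1.01 (SE, edgeR adjusted p = 0.778), higher than the vehicle mean in 5 of 6 libraries. Ret had 0.88 ± 0.74 (adjusted p = 0.685), higher in 6 of 6. All 6 ERKi libraries were neuron-rich, with sensory neuron markers summing to between 2811 and 10260 CPM beside 77.8 to 4253 in vehicle. With Scn10a as a covariate these values became -0.09 ± 0.33 for Bdnf and 0.16 ± 0.35 for Ret. Without ERKi 3, the library richest in Scn10a, Ret had 0.40 and Bdnf 0.44 in ERKi against vehicle. Gdnf had -0.42 ± 0.38 (adjusted p = 0.699), which became -0.11 ± 0.35 with the covariate.

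Ntrk2, Gfra1 and Ntrk3, whose neuron slopes did not pass, had smaller errors. In the combination against vehicle Ntrk2 had a log2 fold change of -0.25 ± 0.14 (edgeR adjusted p = 0.52), with 0 of 6 libraries above the vehicle mean, and -0.24 ± 0.14 with Scn10a as a covariate. Gfra1 had -0.28 ± 0.17 (adjusted p = 0.571) and -0.27 ± 0.17 with the covariate. Ntrk3 had 0.33 ± 0.23 in ERKi against vehicle (adjusted p = 0.672), higher in 5 of 6 libraries. In the combination against vehicle the sum of 10 nerve fibroblast markers ranged from 4903 to 12860 CPM (median 7839), beside 10610 to 17770 (median 13870) in vehicle, and their part in the values of Ntrk2 and Gfra1 was not tested. In CDKi against vehicle the 6 members lay between -0.33 ± 0.74 (Ret) and 0.11 ± 0.23 (Ntrk3), each with an adjusted p of 1.0.

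**Figure D5:**
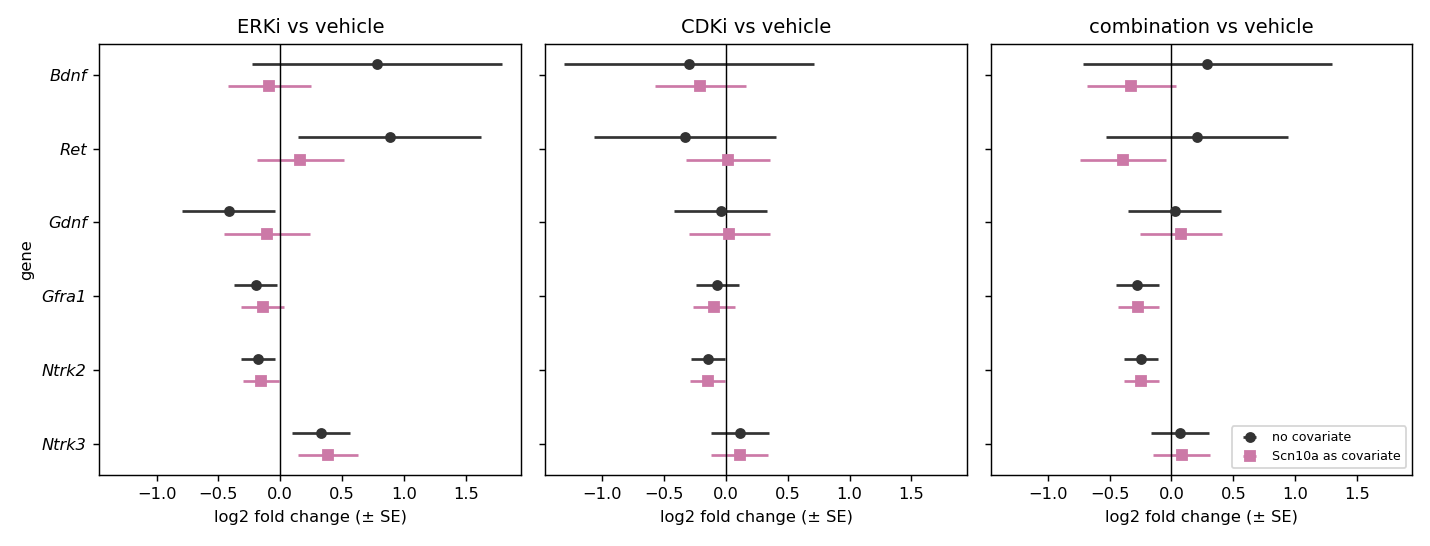
Log2 fold changes with standard errors against vehicle for the 6 tested members, without (circles) and with (squares) log2 CPM of Scn10a as a covariate in edgeR. With the covariate the error of Bdnf in ERKi against vehicle falls from 1.01 to 0.33 and its value moves to -0.09, while Ntrk2 in the combination stays at -0.25 and -0.24.

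No member passed in the combination against either drug alone. Against ERKi alone, Ret had -0.68 ± 0.74 (edgeR adjusted p = 0.777) and Bdnf -0.50 ± 1.00 (adjusted p = 0.872). With Scn10a as a covariate, which removes much of the spread between libraries, Ret had -0.55 ± 0.33 (adjusted p = 0.751). The covariate applies the same slope to all libraries, although the slope of Ret depended on which were used. Over 38 alternative settings the value of Ret against ERKi ran from -1.11 to -0.16, and none passed. The interaction, which measures whether the combination departs from the sum of both single effects, was -0.37 ± 0.33 for Ntrk3 and 0.49 ± 0.53 for Gdnf, each with an adjusted p of 0.988. Among the 38 related genes 0 passed in any of the 7 comparisons. The closest against vehicle in the combination were the cytokine gene Lif (-0.95 ± 0.33, adjusted p = 0.224, 0 of 6 libraries above the vehicle mean), Gfra2 (-0.48 ± 0.20, adjusted p = 0.338, 0 of 6) and Maged1, whose product binds p75 (-0.36 ± 0.16, adjusted p = 0.374, 0 of 6). Lif ranged from 7.50 to 13.9 CPM in vehicle and from 2.21 to 10.4 in the combination. Against vehicle in ERKi the closest were the cytokine receptor genes Osmr (-0.38 ± 0.16), Cntfr (0.99 ± 0.46) and Il6st (-0.34 ± 0.16), each with an adjusted p of 0.672. Against vehicle in CDKi they were Gfra2 (-0.41 ± 0.20), Pcsk5 (-0.27 ± 0.20) and Il6st (-0.18 ± 0.16), each with an adjusted p of 1.0.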

How the data were processed

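RNA of 24 sciatic nerve samples was sequenced with a ribosomal RNA removal kit, per the labels' protocols, while the molecule label reads polyA RNA. The authors deposited raw counts per gene, 1 column per sample. STAR, FastQC, DESeq2 and the build mm10 are named in the submitters' processing notes. How reads were counted (program, annotation, strand) is not given in the sources used here. Groups came from the treatment label, and replicate numbers follow accession order and only name samples.

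Counts were fitted with edgeR 4.0.16 (R 4.3.3): filterByExpr (minimum count 10, minimum total 15; 15385 of 24421 genes kept, at least 98.6% of each library's counts), TMM, a robust quasi-likelihood fit with group means (20 residual degrees of freedom), two-sided p-values adjusted by Benjamini-Hochberg over all genes tested, threshold 0.05. A standard error is the size of the estimate over the root of its F statistic. The neuron slope leaves out Scn10a itself; log2 CPM used a prior count of 2. Scripts were tested on simulated data. No library repeated another of its group: over 60 such pairs chi-square was at least 19.8 times its degrees of freedom. Limits and floors cover counting error only.

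All 8 members are named, with Scn10a, Ngfr, Gfra2, Gfra3, Nrtn, Cntf and Lif; of the other pathway genes, those past the threshold in a treatment comparison, the 3 smallest p per comparison with vehicle and the 3 highest and 3 lowest slopes; and the 3 genes most like each tested member. Some genes of this rule are not reported here. Members, lists and motif were chosen with earlier results of these data known. Gene positions and exon lengths are from GENCODE M21 (GRCm38), promoters from RefSeq GRCm38.p6. Alternatives were other scalings, filters, DESeq2 1.42.0, limma-voom (limma 3.58.1), sets of libraries and covariates.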

Additional observations from a re-analysis of the deposited data

Results flagged for a closer look

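Ret in ERKi 3 stood apart from the other ERKi libraries: 422.2 CPM, against 98.59 to 166.5 CPM in the other 5, on log2 CPM a gap of 0.64 of the group's range, above Dixon's 95% limit for 6 values. Scn10a was also highest there, at 633.8 CPM, and liver RNA was present. On log2 CPM, the only scale tested, no other library stood out this way among 24 combinations of member and group, and chance alone flags about 1 in 20.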

How the results depend on the processing

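The members' calls were stable for treatment and, except for Gdnf, for neuron content. Over 1590 alternative fits of the 42 treatment results of members, 0 passed, the smallest adjusted p was 0.312, and 97 changed sign. Bdnf and Ret passed the neuron slope in 39 of 39 settings (0.77 to 1.17 and 0.36 to 0.93). Gdnf passed in 12 (adjusted p from 0.0103 to 0.255 over all 39), also with a term for the 2 number series of the sample titles (adjusted p = 0.0462), so 2 or 3 members passed depending on the setting. Leaving out 1 library at a time gave 3239 to 4097 genes past the slope threshold. Cntf did not pass over all libraries, and its small slope changed sign in several settings without passing. In the libraries with Scn10a above 60 CPM, a limit chosen after seeing the data, it was -0.91 (edgeR adjusted p = 0.00757).

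Counts over all genes moved more. For ERKi against vehicle DESeq2 called 2. For CDKi against vehicle DESeq2 called 30, and no count filter, the neuron-rich libraries alone, the Scn10a covariate and leaving out the 2 libraries highest in Scn10a each gave 1, and single libraries left out gave 0 to 3. For the combination against vehicle the 19 genes became 6 with no count filter, 262 in DESeq2, 29 in limma-voom, 108 without the 3 libraries with liver RNA, 36 with the Scn10a covariate, 10 with only the groups compared, 1 without the deepest and shallowest library, 1 in neuron-rich libraries, 1 without the 2 highest in Scn10a, 0 above 60 CPM, and 0 to 94 with single libraries left out, the highest without vehicle 4. For the combination against ERKi the counts were 35 (DESeq2), 4 (limma-voom), 1 (without the deepest and shallowest) and 0 to 1 (single libraries left out). For the combination against CDKi they were 78 (DESeq2), 4 (limma-voom), 0 (neuron-rich, only the groups compared, and above 60 CPM) and 0 to 6. The interaction gave 48 in DESeq2 and 0 to 1 with single libraries left out. At an unadjusted p under 0.05, 975 genes passed for ERKi and 480 for CDKi against vehicle, 1770 for the combination against vehicle, 1437 for the combination against ERKi, 1087 for the combination against CDKi, 698 for ERKi against CDKi (DESeq2 0, limma-voom 0) and 568 for the interaction. The causes were not tested. No paired analysis was possible because the replicate numbers follow accession order and pair no samples. Depth limits Ntf3 and Artn, which were fitted only without the count filter.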
